A study of Mus musculus with 47 samples.

Results

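The 10 genes described here encode proteins that make, activate or inactivate steroids in the brain. They are Tspo, Star, Fdxr, Fdx1, Cyp7b1, Srd5a1, Srd5a3, Akr1c14, Hsd17b4 and Cyp19a1. They were chosen by name, through the mouse GENCODE annotation, and all 10 were found among the 37315 genes of the count tables. RNA was sequenced from the whole hypothalamus, hippocampus, neocortex and cerebellum of adult females of C57BL/6J, an inbred mouse strain. The mice were intact and untreated as far as the labels say, were housed in groups, and were killed in proestrus, estrus, metestrus or diestrus. Of the 47 libraries, the hypothalamus, hippocampus and cerebellum had 12 each, 3 for every stage, and the neocortex had 11, of which 2 were from estrus. All proestrus mice were 91 days old and all estrus mice 90 days, while metestrus mice were 90 or 91 days and diestrus mice 90 or 92 days old. Age and stage therefore cannot be told apart between proestrus and estrus. The submitters call the libraries of a group biological replicates, but the labels do not say which libraries came from 1 mouse. Tests between regions treated all libraries as independent.

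Neurosteroids are steroids made within the nervous system from cholesterol or from steroids that arrive in the blood. The first step takes place in mitochondria, where cholesterol is delivered to the side-chain cleavage enzyme Cyp11a1, which receives its electrons through adrenodoxin reductase and adrenodoxin. Later enzymes reduce progesterone to allopregnanolone, a steroid that strengthens GABA-A receptor currents, or convert androgens to estrogens. Levels of ovarian progesterone and estradiol in blood change across the estrous cycle, and the series asks how stable brain RNA is across its stages.

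A level is given below in CPM, the count of a gene per 1000000 counts of its library. Unlike the fits below, CPM has no further scaling between libraries. Levels, ranges and overlaps between regions can therefore differ from the fitted log2 differences. Total counts, in units of 1000000, ran from 1.83 to 8.26 for the hypothalamus, 7.67 to 15.68 for the hippocampus, 6.31 to 10.54 for the neocortex and 2.56 to 8.0 for the cerebellum. The labelled regions bore their own markers. The summed level of 6 hypothalamic neuron markers was 409 to 799 CPM in the hypothalamus and at most 2.08 CPM in any other library, and that of 6 cerebellar granule cell markers was 3393 to 3998 CPM in the cerebellum and at most 172 CPM elsewhere. The hypothalamic library Estrus 3 stood apart, with the lowest depth of all (1.83 in the same units), 14.8% of its counts in identifiers without an annotation record, and a TMM scaling factor of 0.669, against 0.840 to 1.18 in the other 11 hypothalamic libraries. The hypothalamic library Metestrus 3 had the next highest share of such counts, 8.68%, and the fits between regions and those of hypothalamic stages were repeated without both. The hippocampal libraries were prepared with another protocol than those of the other 3 regions, which shared a NEBNext Ultra kit, so region and library protocol cannot be told apart in any comparison with the hippocampus.

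Per kilobase of exon, which allows levels to be compared between genes, Hsd17b4 was the most abundant of the 10 in every region, with a mean of 8.94 to 11 CPM per kilobase. The next was Fdxr in the hypothalamus (4.39 ± 1.34 CPM per kilobase, SD, n = 12) and cerebellum (6.71 ± 1.04, n = 12) and Cyp7b1 in the hippocampus (7.11 ± 1.09, n = 12). In the neocortex Srd5a1 and Cyp7b1 followed at 3.30 and 3.29 CPM per kilobase, with SDs of 0.295 and 0.416 over 11 libraries. Akr1c14 came next to last in all 4 regions, at 0.181 to 0.363 CPM per kilobase, and Cyp19a1 came last. The remaining genes lay between 1.12 CPM per kilobase, for Star in the neocortex, and 3.36, for Fdxr in the hippocampus. The RNA of these enzymes was thus spread over a wide range of levels, from a gene counted in every library to one with 8 counts in the whole series.

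**Figure D1:**
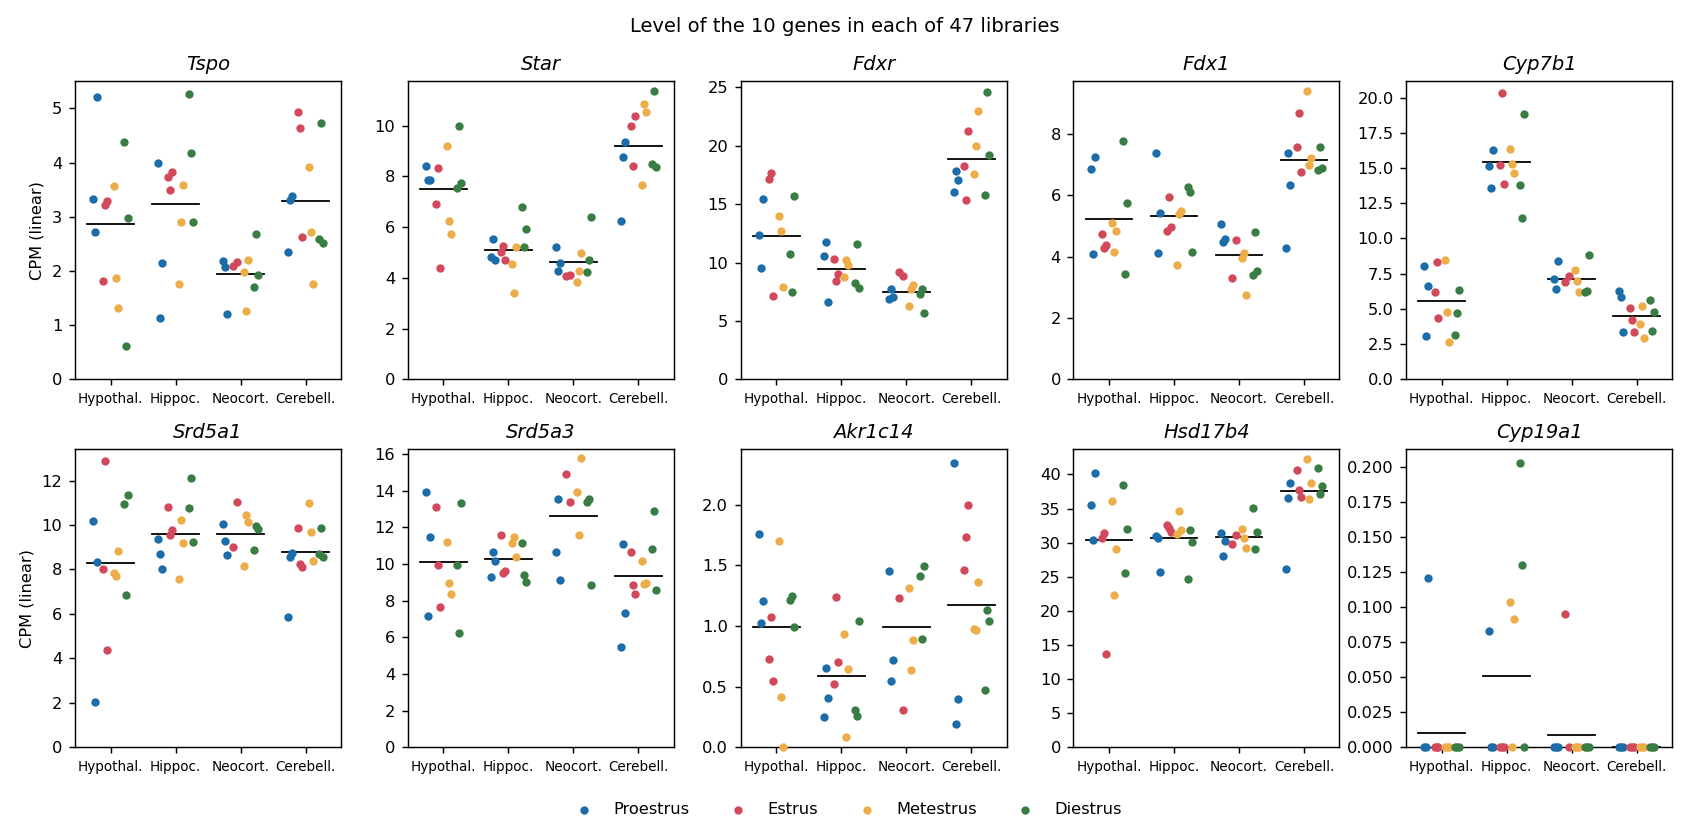
Level of each of the 10 genes in CPM (linear axis from 0, own scale per gene) in the 47 libraries, by region on the horizontal axis and with stage as colour, where each point is 1 library and each black line the mean of a region. Cyp7b1 stands above all other regions in the hippocampus, with 11.5 CPM in its lowest library, and Fdxr has its highest mean, 18.8 CPM, in the cerebellum.

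Regions were compared with edgeR's quasi-likelihood fit, with stage as a covariate, over 16529 genes that passed a filter on low counts. A gene was called when its difference was significantly larger than 2-fold (glmTreat, Benjamini-Hochberg adjusted p under 0.05). Of the 10 genes, 8 passed the filter, and Akr1c14 and Cyp19a1 did not. Cyp7b1 was the only one of the 8 called, in 2 of 6 pairs of regions. It was called between the hypothalamus and the hippocampus, where 14.0% of all genes tested were called and 7.80% were called higher in the hippocampus, and between the hippocampus and the cerebellum, where 18.9% were called and 12.7% were called higher in the hippocampus. No member was called between the hypothalamus and neocortex (16.1% of all genes), the hypothalamus and cerebellum (18.5%), the hippocampus and neocortex (7.56%) or the neocortex and cerebellum (17.1%). In whole tissue, fewer cells of a type and less RNA per cell cannot be told apart.

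Tests against no difference, an alternative added after the data were seen, passed for 4, 7, 5, 5, 7 and 8 of the 8 genes. The order of pairs is hypothalamus and hippocampus, hypothalamus and neocortex, hypothalamus and cerebellum, hippocampus and neocortex, hippocampus and cerebellum, and neocortex and cerebellum. The shares of all genes that passed were 75.0%, 74.9%, 76.0%, 65.4%, 77.4% and 71.4% in the same order, so passing this test was common among all genes. The median size of the log2 differences of the 8 genes was 0.17, 0.42, 0.24, 0.27, 0.30 and 0.64, against 0.43, 0.46, 0.48, 0.28, 0.47 and 0.40 over all genes tested. Without the hypothalamic libraries Estrus 3 and Metestrus 3, the log2 differences of the 8 genes moved by at most 0.05 and Cyp7b1 was again the member called against 2-fold in the same 2 pairs. The shares of all genes called in fits without these libraries were not computed. Of the differences that passed the test against no difference, 4 then missed it. They were those of Srd5a1 between hypothalamus and hippocampus (edgeR adjusted p = 0.0597) and between hippocampus and cerebellum (0.0572), of Fdx1 between hypothalamus and neocortex (0.0600) and of Srd5a3 between hippocampus and cerebellum (0.0533). Below, a difference said to pass the test against no difference is one of these, from the same edgeR fit.

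Cyp7b1 encodes oxysterol 7α-hydroxylase, which hydroxylates DHEA, pregnenolone and oxysterols and for which the hippocampus is known as a main site in the rodent brain. Its lowest, median and highest levels were 11.5, 15.2 and 20.3 CPM in the hippocampus, 6.18, 6.97 and 8.86 CPM in the neocortex, 2.65, 5.49 and 8.51 CPM in the hypothalamus and 2.92, 4.50 and 6.25 CPM in the cerebellum. Every hippocampal library was above every library of the other 3 regions, while the other 3 regions overlapped. Among 17549 genes with a mean of at least 1 CPM in some region, libraries did not overlap for 18.6% between the hypothalamus and hippocampus, 20.8% between the hippocampus and neocortex and 35.3% between the hippocampus and cerebellum. For the hypothalamus against the neocortex and against the cerebellum, where no member was free of overlap, the shares were 21.5% and 23.5%.

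The mean level of Cyp7b1 was 15.4 ± 2.37 CPM in the hippocampus (SD, n = 12), 7.14 ± 0.902 in the neocortex (n = 11), 5.57 ± 2.09 in the hypothalamus (n = 12) and 4.50 ± 1.12 in the cerebellum (n = 12). It was lower in the hypothalamus than in the hippocampus by a log2 difference of -1.45 (voom SE 0.12, edgeR glmTreat adjusted p = 4.49e-04) and higher in the hippocampus than in the cerebellum by 1.89 (SE 0.13, adjusted p = 8.02e-10). Its log2 difference between hippocampus and neocortex was 1.02 (voom 95% interval 0.81 to 1.21), which passed the test against no difference (adjusted p = 4.17e-12) but not that against 2-fold (adjusted p = 1). Within the 3 regions of the same kit, Cyp7b1 was higher in the neocortex than in the hypothalamus (log2 difference, hypothalamus minus neocortex, -0.43, adjusted p = 0.00289 against no difference) and higher in the neocortex than in the cerebellum (0.87, adjusted p = 5.68e-08). The hypothalamus was above the cerebellum by 0.44 (adjusted p = 0.00616 against no difference), and libraries of these 3 regions overlapped.

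Marker sums of cells that could bear on this order are given beside it, and their part in the level of Cyp7b1 was not tested. The summed level of 5 hippocampal neuron markers was 467 to 628 CPM in the hippocampus and 65.7 to 159 CPM elsewhere, and that of 8 choroid plexus markers was 154 to 3332 CPM in the hippocampus, 33.3 to 2012 CPM in the cerebellum and at most 59.4 CPM in the other 2 regions. All 5 and all 8 markers had counts in every region. The hippocampal library Proestrus 2 had the lowest choroid plexus sum, 154 CPM, and held Cyp7b1 at 13.6 CPM, within the range of the other hippocampal libraries.

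Fdxr encodes adrenodoxin reductase and Fdx1 adrenodoxin, the electron chain that serves mitochondrial P450 enzymes. Both had their highest mean in the cerebellum and their lowest in the neocortex. Because they work as a pair and had this order in common, the 250 bases before each start site are shown. The sequences are from RefSeq, build GRCm38.p6, written 5′ to 3′ on the gene's own strand. Capitals mark GGGCGG or its reverse complement CCGCCC, the core of an Sp1 motif.
Fdxr promoter, chr11:115276970-115277219, minus strand: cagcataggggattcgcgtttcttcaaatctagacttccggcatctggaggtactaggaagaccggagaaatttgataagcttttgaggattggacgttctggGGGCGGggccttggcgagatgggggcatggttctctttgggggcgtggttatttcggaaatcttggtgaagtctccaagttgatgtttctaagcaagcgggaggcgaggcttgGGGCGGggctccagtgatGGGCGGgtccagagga
Fdx1 promoter, chr9:51963603-51963852, minus strand: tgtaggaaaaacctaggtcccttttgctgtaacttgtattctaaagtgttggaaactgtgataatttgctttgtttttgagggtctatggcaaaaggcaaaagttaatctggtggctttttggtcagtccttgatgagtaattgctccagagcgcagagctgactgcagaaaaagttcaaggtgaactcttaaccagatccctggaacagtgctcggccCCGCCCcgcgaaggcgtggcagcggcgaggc
These windows hold 3 matches for Fdxr and 1 for Fdx1, and 32.7% of 32851 promoter windows of that length hold at least 1. Windows were also searched on both strands for AGGTCA, a nuclear receptor half-site that 14.0% of all windows hold, for the longer TCAAGGTCA (0.387%) and for TATAAA (12.4%). The first 2 of these motifs overlap, since TCAAGGTCA contains AGGTCA. Neither window held any of these 3 motifs. The GC content was 54.8% for Fdxr and 48.0% for Fdx1.

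Fdxr, at GRCm38 chr11:115268024-115277050 on the minus strand, was lowest, median and highest at 15.4, 18.1 and 24.6 CPM in the cerebellum. The same values were 7.12, 12.5 and 17.7 CPM in the hypothalamus, 6.66, 9.44 and 11.8 CPM in the hippocampus and 5.66, 7.72 and 9.21 CPM in the neocortex. All cerebellar libraries were above all hippocampal and all neocortical ones, and they overlapped the hypothalamic ones. Between the cerebellum and neocortex 35.5% of all genes did not overlap. The log2 difference of Fdxr, neocortex minus cerebellum, was -1.15 (voom SE 0.10, 95% interval -1.33 to -0.94), with an edgeR adjusted p of 0.108 against 2-fold and 4.80e-15 against no difference. Without the libraries Estrus 2 of all regions, the log2 difference was -1.19 and the adjusted p against 2-fold 0.0467, so the side of the threshold depended on these libraries. In the other pairs, Fdxr passed the test against no difference, with log2 differences of -0.53 (hypothalamus minus cerebellum), -0.92 (hippocampus minus cerebellum), 0.62 (hypothalamus minus neocortex), 0.39 (hypothalamus minus hippocampus) and 0.23 (hippocampus minus neocortex).

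Fdx1, at chr9:51943306-51963556 on the minus strand, had a mean of 7.16 ± 1.24 CPM in the cerebellum (SD, n = 12), 5.33 ± 1.05 in the hippocampus (n = 12), 5.23 ± 1.39 in the hypothalamus (n = 12) and 4.05 ± 0.726 in the neocortex (n = 11). Its libraries overlapped in every pair of neighbouring regions in that order, and the hippocampus and hypothalamus did not differ beyond their spread (log2 difference -0.04, 95% interval -0.23 to 0.22). Fdx1 was lower in the neocortex than in the cerebellum by a log2 difference of -0.68 (edgeR adjusted p = 6.46e-07 against no difference). Both electron donors were therefore lower in the neocortex than in the cerebellum by this test. Across the 16 means of region and stage, log2 levels of Fdxr and Fdx1 had a Pearson r of 0.84, and those of Star and Fdxr 0.87. These are descriptions over means that share region and library.

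**Figure D2:**
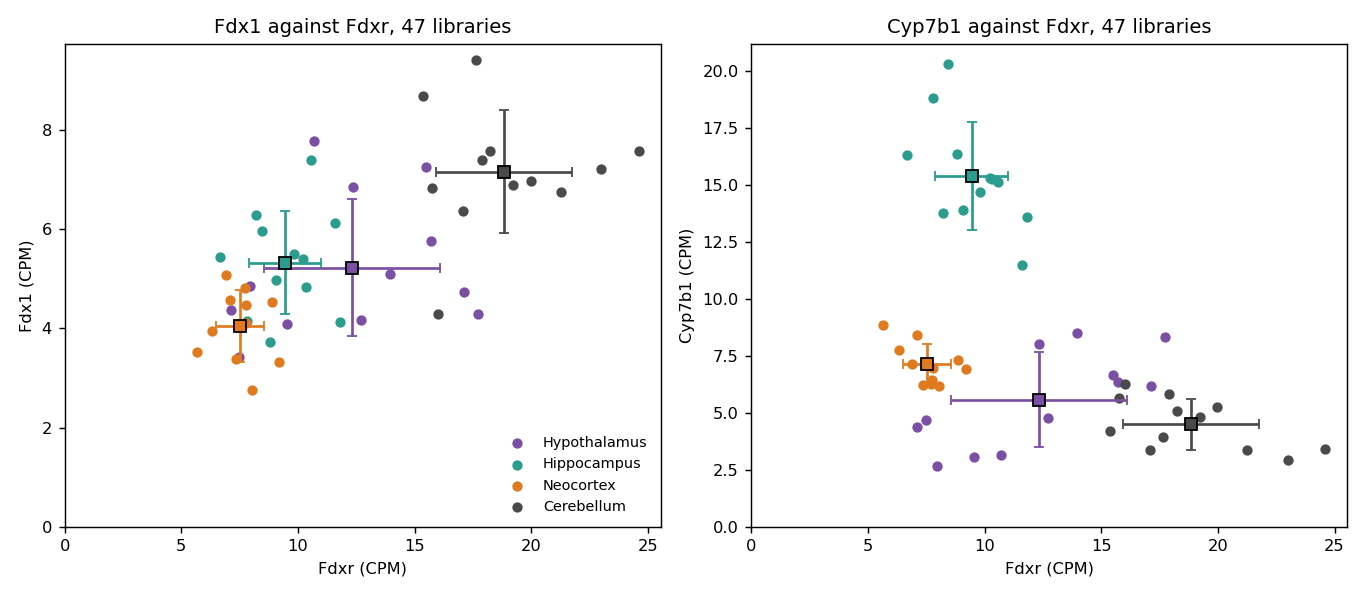
Level of Fdx1 (left) and Cyp7b1 (right) against that of Fdxr, in CPM on linear axes, in the 47 libraries coloured by region, with squares and bars for the mean and SD of each region. Cerebellar libraries lie to the right in both panels, with Fdxr at 15.4 CPM or more, and hippocampal libraries stand above all others in Cyp7b1, at 11.5 CPM or more.

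Star encodes the steroidogenic acute regulatory protein, which moves cholesterol to the inner mitochondrial membrane. Its lowest, median and highest levels were 6.25, 9.04 and 11.4 CPM in the cerebellum, 4.38, 7.80 and 9.98 CPM in the hypothalamus, 3.41, 5.12 and 6.79 CPM in the hippocampus and 3.82, 4.28 and 6.41 CPM in the neocortex. Cerebellar and neocortical libraries overlapped narrowly, with 6.25 CPM in the lowest cerebellar and 6.41 CPM in the highest neocortical library. Star was lower in the neocortex than in the cerebellum by a log2 difference of -0.85 (voom 95% interval -1.04 to -0.66, edgeR adjusted p = 1.80e-11 against no difference) and higher in the hypothalamus than in the neocortex by 0.60 (adjusted p = 5.15e-07). The hippocampus and neocortex, the lowest neighbours in the order, did not differ beyond their spread (log2 difference 0.06, 95% interval -0.14 to 0.23). Its order of regions was the same as that of Fdxr.

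Tspo encodes the translocator protein of the outer mitochondrial membrane, which binds cholesterol and is widely used as a marker of activated glia. It was a low gene, with 2 to 60 counts per library. Its lowest, median and highest levels were 1.75, 3.01 and 4.92 CPM in the cerebellum, 1.12, 3.54 and 5.27 CPM in the hippocampus, 0.623, 3.10 and 5.20 CPM in the hypothalamus and 1.20, 2.08 and 2.68 CPM in the neocortex. All regions overlapped, and the neocortex had the lowest median. Tspo was lower in the neocortex than in the cerebellum (log2 difference -0.57, edgeR adjusted p = 0.0104 against no difference) and than in the hippocampus (hippocampus minus neocortex 0.61, adjusted p = 0.00347). The cerebellum, hippocampus and hypothalamus did not differ beyond their spread, with voom 95% intervals of -0.41 to 0.40 for hippocampus minus cerebellum and -0.55 to 0.36 for hypothalamus minus cerebellum.

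Tspo is known as a gene of microglia, endothelium, ependyma and choroid plexus, and the marker sums of these cells did not share 1 order of regions. The sum of 11 microglia markers was 107 to 152 CPM in the cerebellum, 138 to 246 CPM in the hypothalamus, 275 to 331 CPM in the neocortex and 291 to 357 CPM in the hippocampus. The sum of 11 endothelial and pericyte markers was 208 to 467 CPM in the hypothalamus, 315 to 394 CPM in the hippocampus, 316 to 420 CPM in the neocortex and 394 to 460 CPM in the cerebellum. The sum of 6 ependyma markers was 11.9 to 20.8 CPM in the neocortex and 22.5 to 82.0 CPM in the other 3 regions. The lowest hippocampal level of Tspo, 1.12 CPM, was that of the library Proestrus 2, which also had the lowest hippocampal sums of choroid plexus markers (154 CPM) and ependyma markers (22.5 CPM). The highest, 5.27 CPM, was that of the library Diestrus 1, where choroid plexus markers summed to 2859 CPM. The libraries between did not keep the order of this sum. Diestrus 2 and Metestrus 3 had higher sums, 3332 and 2934 CPM, with Tspo at 4.17 and 3.58 CPM, and Proestrus 1 and Proestrus 3 had similar sums, 1738 and 1692 CPM, with Tspo at 3.99 and 2.15 CPM. The part of these cells in the level of Tspo was not tested. Reads of Tspo and of Mcat, a gene on the opposite strand, cannot be told apart in the 0.4% of 50-base windows of Tspo that both share, because strand-specific counting is not stated.

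Srd5a1 and Srd5a3 encode steroid 5α-reductases. Srd5a1 reduces progesterone and testosterone in the brain, and Srd5a3 is known mainly for making dolichol. Their log2 differences between regions were at most 0.31 and 0.60 in size, smaller than those of Cyp7b1 and Fdxr, and their promoter windows are shown for comparison with those above, with the same capitals.
Srd5a1 promoter, chr13:69611464-69611713, minus strand: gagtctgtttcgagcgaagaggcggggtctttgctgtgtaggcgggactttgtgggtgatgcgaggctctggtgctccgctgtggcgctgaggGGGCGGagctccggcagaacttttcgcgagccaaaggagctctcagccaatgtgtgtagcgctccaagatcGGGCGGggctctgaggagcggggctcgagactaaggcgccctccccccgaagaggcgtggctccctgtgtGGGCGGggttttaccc
Srd5a3 promoter, chr5:76140023-76140272, plus strand: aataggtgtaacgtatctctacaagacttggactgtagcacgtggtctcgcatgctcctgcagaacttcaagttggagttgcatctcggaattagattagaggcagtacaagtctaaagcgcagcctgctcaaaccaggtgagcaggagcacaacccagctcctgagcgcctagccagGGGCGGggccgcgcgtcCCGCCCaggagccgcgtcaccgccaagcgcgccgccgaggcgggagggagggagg
These windows hold 3 matches of GGGCGG or its reverse complement for Srd5a1 and 2 for Srd5a3, with a GC content of 64.8% and 60.8%, and none of the other 3 motifs. The windows of Akr1c14 and of 3 start sites of Cyp19a1 hold neither GGGCGG nor its reverse complement. Of those of Cyp19a1, 1 holds AGGTCA and 2 hold TATAAA. These 6 genes are all the members with a window, and no relation between these letters and the levels was tested.

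Srd5a1, at chr13:69573449-69611442 on the minus strand, had means of 9.60 ± 1.26 CPM in the hippocampus (SD, n = 12), 9.59 ± 0.858 in the neocortex (n = 11), 8.80 ± 1.26 in the cerebellum (n = 12) and 8.28 ± 2.99 in the hypothalamus (n = 12). The hypothalamic libraries ran from 2.05 CPM in Proestrus 2, with 6 counts, to 12.9 CPM in Estrus 2, and overlapped all others. The largest log2 difference of Srd5a1 between 2 regions was -0.31 (hypothalamus minus neocortex, voom 95% interval -0.53 to -0.13, edgeR adjusted p = 0.00569 against no difference). Between hippocampus and neocortex the interval was -0.27 to 0.08. Of the 50-base windows of Srd5a1, 15.1% are shared with Gm17108, a transcript annotated over it on the same strand, and the counts of these windows are uncertain.

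Srd5a3, at chr5:76140271-76155504 on the plus strand, had its highest mean in the neocortex, 12.6 ± 2.26 CPM (SD, n = 11). Its means were 10.3 ± 0.910 CPM in the hippocampus, 10.1 ± 2.54 in the hypothalamus and 9.34 ± 1.93 in the cerebellum, with n = 12 for each. Neocortical libraries, at 8.86 to 15.8 CPM, overlapped those of every other region. Srd5a3 was higher in the neocortex than in each other region by the edgeR test against no difference. The log2 differences were -0.41 (hypothalamus minus neocortex, adjusted p = 2.33e-04), -0.39 (hippocampus minus neocortex, 1.32e-04) and 0.60 (neocortex minus cerebellum, 2.78e-07). The hypothalamus did not differ beyond its spread from the hippocampus (95% interval -0.21 to 0.17) or from the cerebellum (-0.02 to 0.40). The type 2 enzyme, Srd5a2, had 0 counts in the hypothalamus and cerebellum, 2 in the hippocampus and 1 in the neocortex.

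Akr1c14 encodes the 3α-hydroxysteroid dehydrogenase that makes allopregnanolone from dihydroprogesterone in the mouse. It was counted 0 to 17 times per library. The pooled level over the libraries of a region, with an exact 95% Poisson interval that covers counting error only, was 1.10 CPM (0.830 to 1.43) for the hypothalamus, 0.599 (0.476 to 0.743) for the hippocampus, 0.986 (0.796 to 1.21) for the neocortex and 1.20 (0.951 to 1.5) for the cerebellum. The hippocampal interval did not meet those of the other 3 regions, whose intervals met each other. The libraries overlapped in all regions, from 0 to 1.76 CPM in the hypothalamus, 0.0832 to 1.24 CPM in the hippocampus, 0.309 to 1.49 CPM in the neocortex and 0.194 to 2.34 CPM in the cerebellum. The gene did not pass the filter of the region fit with all libraries and was not tested there. Without the hypothalamic libraries Estrus 3 and Metestrus 3 it passed the filter and was lower in the hippocampus than in the other 3 regions by the edgeR test against no difference. The log2 differences were 0.94 for hypothalamus minus hippocampus (adjusted p = 0.00977), -0.85 for hippocampus minus neocortex (0.00890) and -0.89 for hippocampus minus cerebellum (0.00614). With all libraries, 75.0%, 65.4% and 77.4% of all genes tested passed this test in these pairs. The shares in the fit that tested Akr1c14 were not computed. The fit was added after the data were seen, and its filter can admit a gene through the regions where it is high alone. The hippocampus also had another library protocol, so no difference between regions is concluded from these values. Of its 50-base windows, 5.8% are shared with the pseudogene Gm18857, annotated within it.

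Hsd17b4 encodes the multifunctional enzyme of peroxisomal β-oxidation, one activity of which oxidises estradiol. It lies on chromosome 18 at 50128201 to 50196269, plus strand. Its lowest, median and highest levels were 26.2, 38.0 and 42.3 CPM in the cerebellum, 28.1, 30.7 and 35.0 CPM in the neocortex, 24.7, 31.4 and 34.6 CPM in the hippocampus and 13.7, 31.0 and 40.2 CPM in the hypothalamus. The lowest hypothalamic value was that of the library Estrus 3. The regions overlapped, and the neocortex, hippocampus and hypothalamus had nearly equal means of 30.8 ± 1.86, 30.7 ± 2.79 and 30.4 ± 7.33 CPM. Hsd17b4 was higher in the cerebellum, at 37.5 ± 4.03 CPM. Its log2 difference was -0.23 for hypothalamus minus cerebellum (edgeR adjusted p = 5.55e-04 against no difference), -0.22 for hippocampus minus cerebellum (adjusted p = 4.24e-04) and -0.13 for neocortex minus cerebellum (adjusted p = 0.0464). The 95% intervals of the differences among the other 3 regions lay between -0.22 and 0.10.

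Cyp19a1 encodes aromatase, which converts testosterone to estradiol. It had 1 count in the hypothalamus, in the library Proestrus 3, 6 counts in 5 hippocampal libraries, 1 count in the neocortex, in the library Estrus 1, and 0 counts in the cerebellum. Pooled, that was 0.0200 CPM in the hypothalamus (exact 95% Poisson interval 5.07e-04 to 0.112), 0.0438 in the hippocampus (0.0161 to 0.0954) and 0.0106 in the neocortex (2.68e-04 to 0.0591). A count of 0 in the 12 cerebellar libraries together allows a level of up to 0.0463 CPM, by a floor of 3 counts. The intervals of all regions met, so no order of regions was detectable at this depth. Of the 6 hippocampal counts, 3 were in diestrus, 2 in metestrus and 1 in proestrus libraries.

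**Figure D3:**
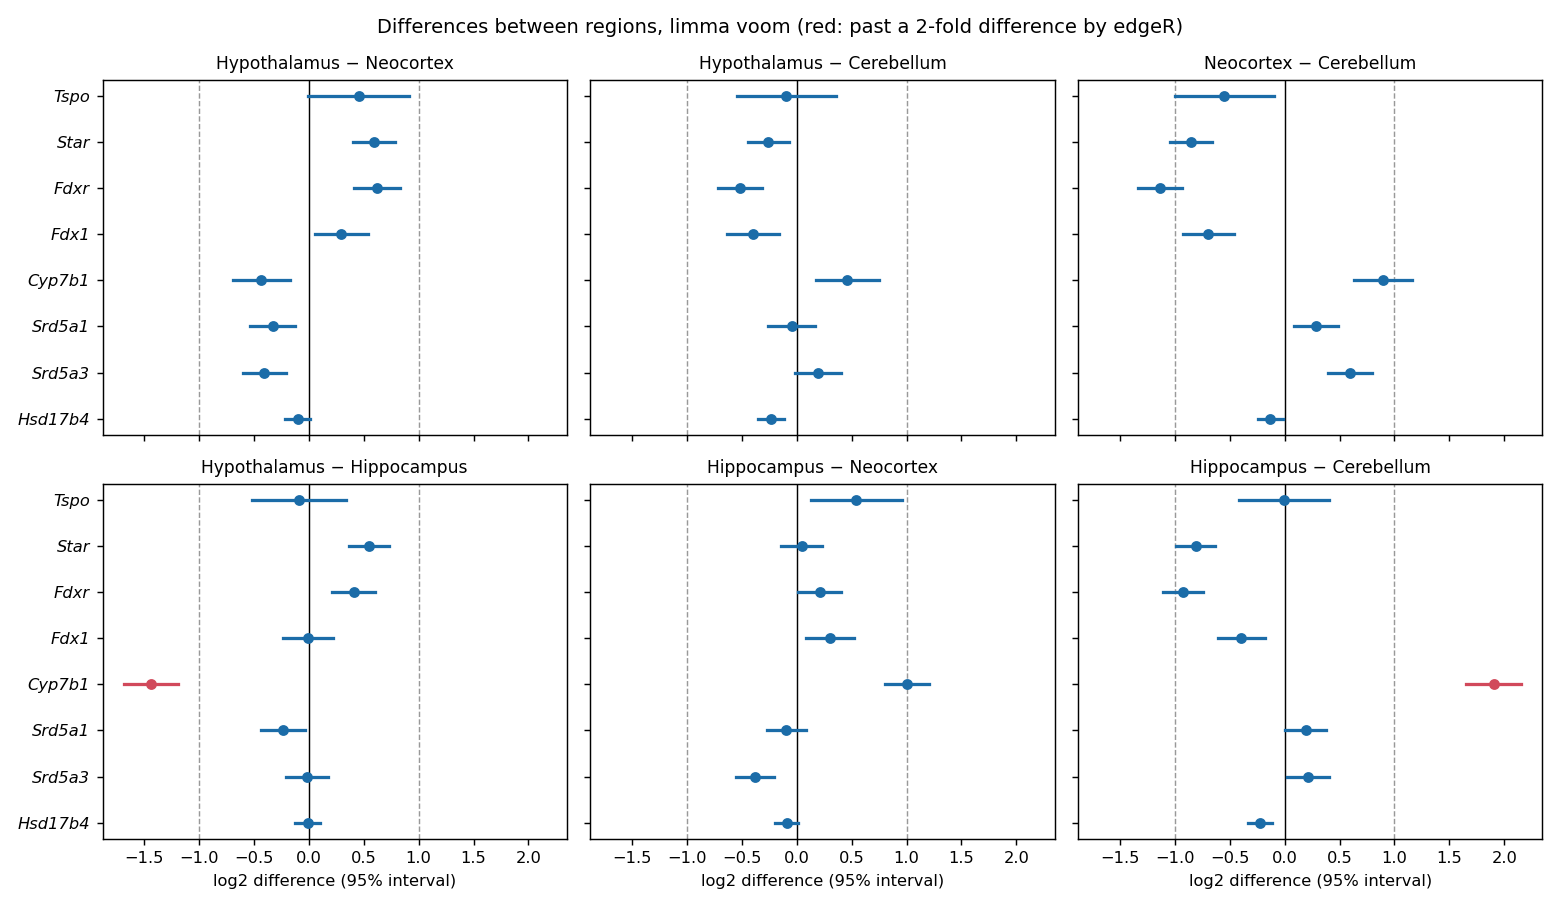
Log2 differences between 2 regions for the 8 genes tested (horizontal axis; points and bars are limma voom estimates with 95% intervals), with the 3 pairs of the same library kit in the top row and the 3 pairs with the hippocampus below. Dashed lines mark 2-fold, and red marks Cyp7b1 in the 2 pairs called by edgeR, at -1.45 and 1.89 by the edgeR estimate.

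The rest of the pathway gives the setting of these genes. Of 56 other genes of steroid synthesis and metabolism found in the tables, 30 passed the filter of the region fit. In the 3 pairs of the same kit, the test against 2-fold called 1 of the 30 higher in the hypothalamus and 5 higher in the neocortex, 2 higher in the hypothalamus and 3 higher in the cerebellum, and 4 higher in the neocortex and 5 higher in the cerebellum. Of all genes tested, 16.1%, 18.5% and 17.1% were called in these pairs. In the pairs with the hippocampus it called 1 higher in the hypothalamus and 4 higher in the hippocampus (14.0% of all genes), 3 higher in the hippocampus and 0 higher in the neocortex (7.56%), and 2 higher in the hippocampus and 4 higher in the cerebellum (18.9%). Median log2 differences of the 30 were -0.01, -0.21 and -0.12 in the 3 pairs of the same kit, against -0.01, 0.00 and -0.01 over all genes.

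Cyp11a1, which cleaves the side chain of cholesterol, was present in the neocortex at 1.32, 2.57 and 3.87 CPM in the lowest, median and highest library. It was at 0.261, 1.28 and 2.02 CPM in the hippocampus, 0, 0.958 and 1.95 CPM in the cerebellum and 0, 0.0851 and 0.548 CPM in the hypothalamus, where all 12 libraries together held 8 counts. Neocortical libraries were all above the hypothalamic ones. The edgeR log2 difference, hypothalamus minus neocortex, was -4.08 (adjusted p against 2-fold = 2.35e-09), and voom gave -3.36 (95% interval -4.08 to -2.63), the size of which depends on how few counts are handled. Neocortex minus cerebellum was 1.58 (adjusted p = 0.0223). The order of regions of Cyp11a1 was therefore not that of Star, Fdxr and Fdx1, which were lowest in the neocortex. An exon of Gm17322 overlaps Cyp11a1 on the same strand over 145 bases, and 2.06% of its windows are shared.

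Hsd3b2, listed among the 3β-hydroxysteroid dehydrogenases, had a mean of 79.8 CPM in the neocortex, 99.9 in the cerebellum, 202 in the hippocampus and 234 in the hypothalamus. It was called higher in the hypothalamus than in the neocortex (log2 difference 1.47, edgeR adjusted p = 7.79e-05) and than in the cerebellum (1.31, adjusted p = 0.00392). These counts are uncertain as a measure of Hsd3b2, since 26.9% of its 50-base windows occur in other genes, and an exon of Zfp697 lies over it on the opposite strand for 99 bases. The other classical genes were at the limit of detection. Hsd17b3 had 0 counts in all 47 libraries. Cyp17a1 had 2, 4, 1 and 0 counts in the hypothalamus, hippocampus, neocortex and cerebellum, Hsd3b1 had 1, 1, 2 and 0, Hsd3b6 had 4, 8, 6 and 0, and Hsd17b1 had 6, 13, 4 and 16.

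**Figure D4:**
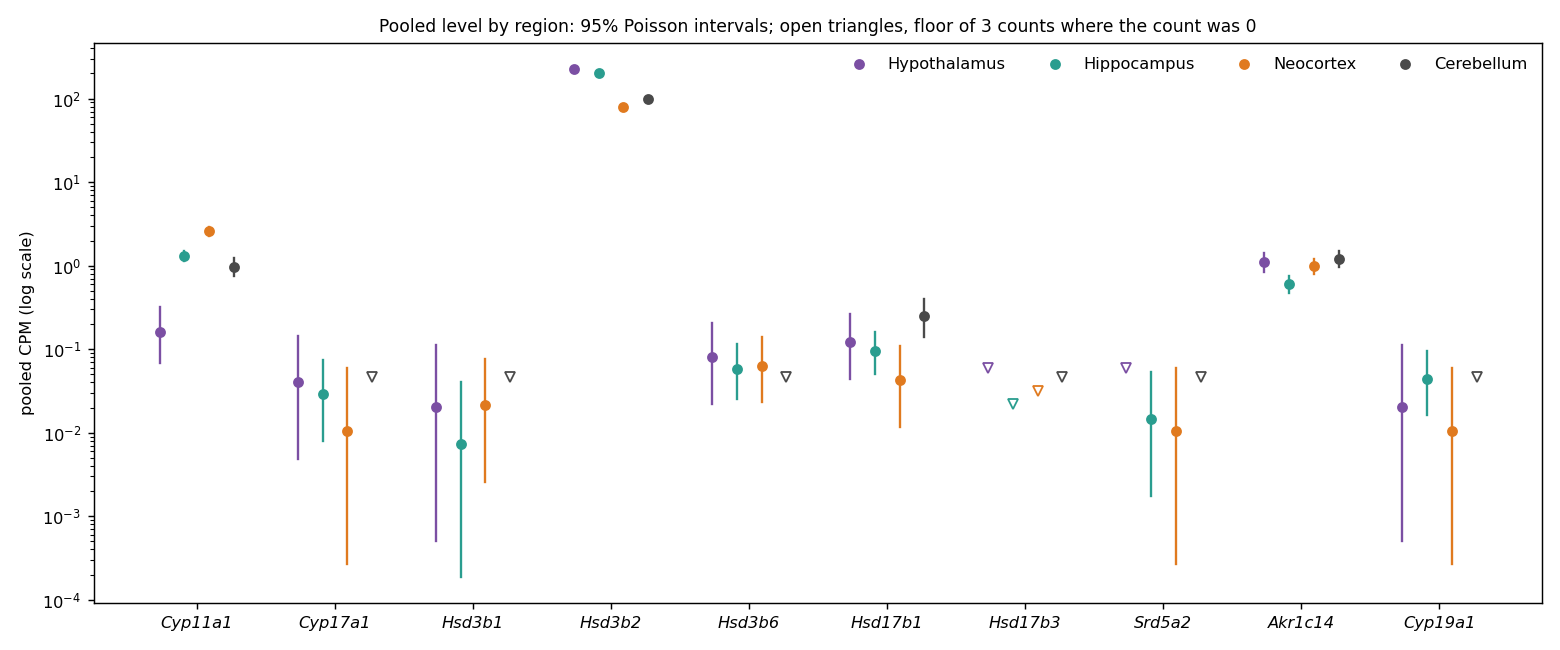
Pooled level (CPM, log axis) of classical steroidogenic genes and of Akr1c14 and Cyp19a1 in each region, with exact 95% Poisson intervals, where open triangles mark the floor of 3 counts in regions with a count of 0. Hsd3b2 stands far above the others at 79.8 to 227 CPM pooled, and Cyp19a1 lies under 0.05 CPM in every region.

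Apart from the classical steps described above, the pathway genes with the largest called differences in the 3 pairs of the same kit were Stard5, Hsd11b1, Cyp46a1, Sult2b1, Sult4a1, Cyp27a1 and Dbi. Stard5, a sterol-binding protein of the family of Star, was at 109 ± 8.05 CPM in the cerebellum, 6.58 ± 0.866 in the neocortex and 6.07 ± 2.13 in the hypothalamus (SD, n = 12, 11 and 12). Its log2 difference was -3.89 for neocortex minus cerebellum (edgeR adjusted p = 8.00e-38). Dbi, a ligand of Tspo, was also higher in the cerebellum, at 131 ± 12.9 against 34.3 ± 3.43 CPM in the neocortex (log2 difference -1.77, adjusted p = 2.96e-16). Cyp46a1, the neuronal cholesterol 24-hydroxylase, was highest of these 3 regions in the neocortex, at 129 ± 10.1 CPM, against 50.5 ± 8.06 in the hypothalamus and 23.0 ± 2.72 in the cerebellum. Sult2b1, a sulfotransferase that acts on cholesterol and pregnenolone, was at 6.34 ± 1.04 CPM in the neocortex, 0.907 ± 0.549 in the cerebellum and 0.731 ± 0.504 in the hypothalamus.

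Stage was tested in each region by an edgeR F-test over all genes that passed the filter there. It covered 8 of the 10 genes in the hypothalamus and cerebellum and 9, with Akr1c14, in the hippocampus and neocortex. The members called were 0 in all 4 regions, and 0% of all genes were called in each. The count of members with an unadjusted p under 0.05 was also 0 in each region, and 0 of them were called by DESeq2 or by limma voom when its libraries were weighted by quality. Over all genes tested, 234 of 15230 in the hypothalamus and 251 of 17079 in the hippocampus had an unadjusted p under 0.05. In the neocortex they were 894 of 15926 and in the cerebellum 256 of 14877. DESeq2 called 0, 3, 1 and 0 in the same order. Evenly spread p-values would put a share of 0.05 of all genes under 0.05. Unadjusted edgeR p-values under 0.05 were rarer than that in the hypothalamus, hippocampus and cerebellum, but not in the neocortex. With 8 or 9 members tested, their absence among the members says little about the members. Of the 48, 54, 54 and 48 pairwise contrasts of members in these regions, 0 were called, and 1, 1, 1 and 0 had an unadjusted p under 0.05. Every pairwise contrast also called 0% of all genes tested in its region. The share of all genes with an unadjusted p under 0.05 in these contrasts was not computed. The interaction of stage and region called 0 of the 9 members tested among 18152 genes, of which 0% were called. Its smallest unadjusted p among the members was 0.343, for Hsd17b4.

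A p that misses the threshold does not bound a change, so intervals were used as well. A member was counted as bounded when the limma voom 95% intervals of all 6 differences between stages lay within 1 log2 unit, that is, within 2-fold. This held for 4 of 8 members in the hypothalamus, where it held for 76.0% of all genes tested, for 7 of 9 in the hippocampus (78.4%), 8 of 9 in the neocortex (83.4%) and 7 of 8 in the cerebellum (84.2%). Within 0.5 log2 units the counts were 0, 2, 3 and 1, against 35.1%, 38.0%, 54.4% and 53.9% of all genes. Star, Fdx1, Srd5a3 and Hsd17b4 were bounded within 2-fold in all 4 regions. Tspo was bounded in the neocortex alone, and Akr1c14 in neither region in which it was tested. Without the hypothalamic libraries Estrus 3 and Metestrus 3, the hypothalamic count was 3 of 8, and the share of all genes was not computed for this fit.

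**Figure D5:**
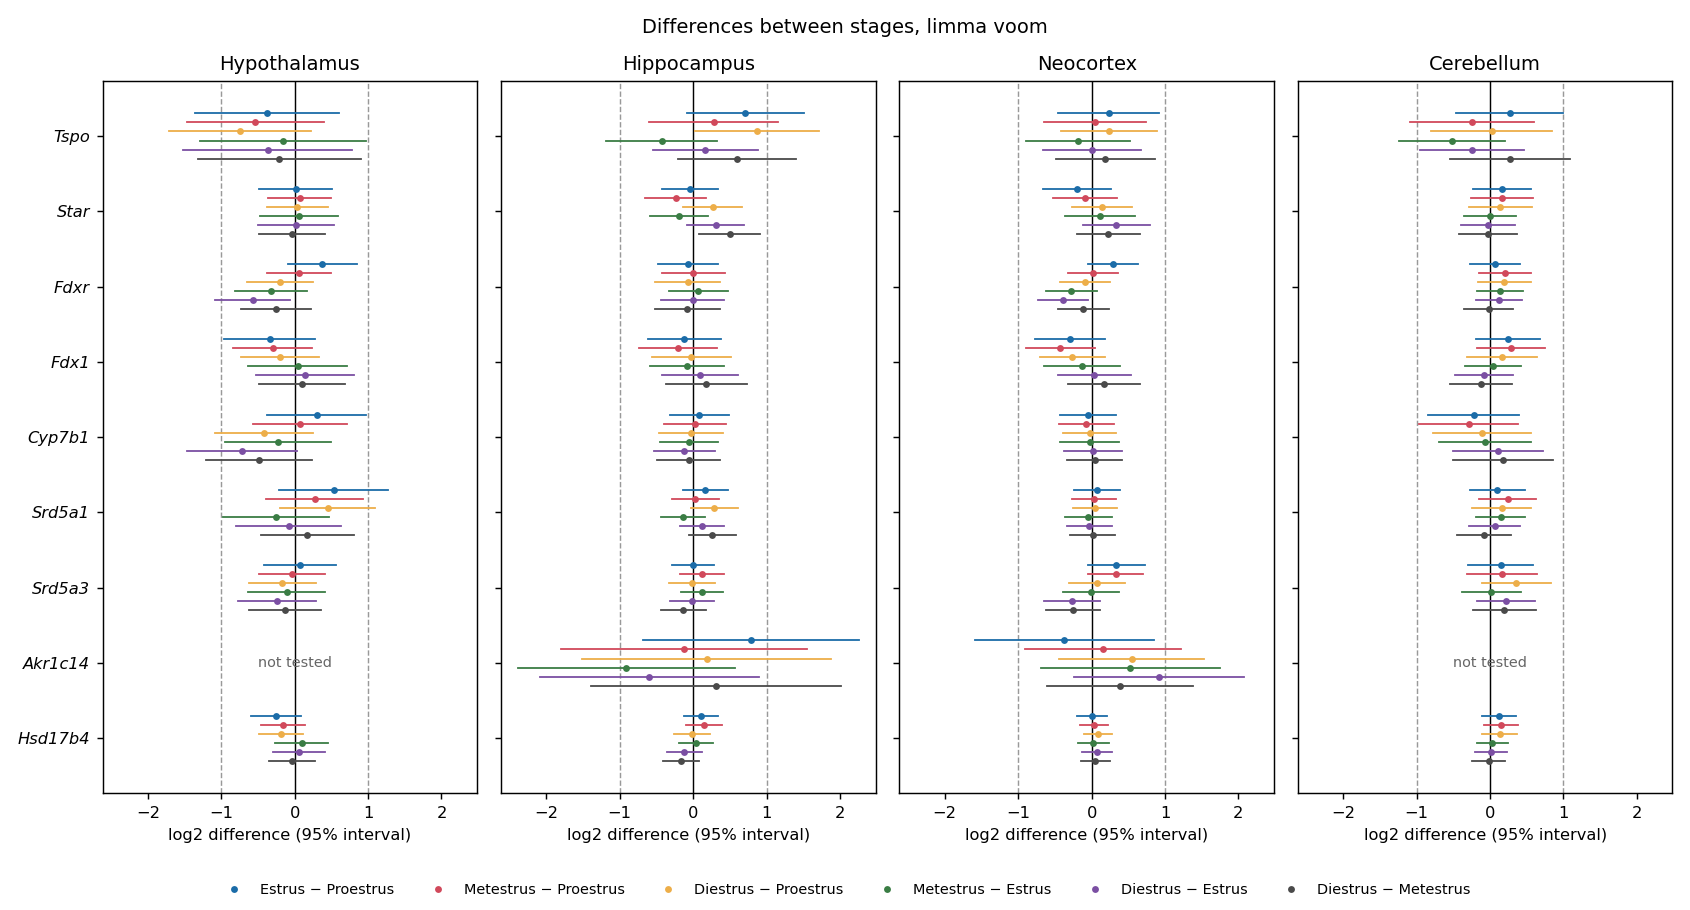
Log2 differences between stages (horizontal axis; limma voom estimates and 95% intervals, 6 contrasts by colour) for the members tested in each region, with dashed lines at 2-fold. Intervals of Hsd17b4 in the neocortex lie closest to 0, with a farthest bound of 0.28, and those of Akr1c14 are widest, with a farthest bound of -2.39 in the hippocampus.

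Hsd17b4, the peroxisomal enzyme, had the closest bounds of the members in 3 regions, with farthest values of 0.28 log2 units in the neocortex, 0.39 in the cerebellum and -0.41 in the hippocampus. In the hypothalamus the closest were those of Star, 0.58, and Hsd17b4, -0.59. In the hippocampus, the region of its highest level, Cyp7b1 was at 15.1, 13.6 and 16.3 CPM in proestrus, 15.2, 20.3 and 13.9 CPM in estrus, 16.3, 15.3 and 14.7 CPM in metestrus, and in diestrus 13.8, 11.5 and 18.8 CPM. The stages overlapped, and the farthest bound of any difference was -0.53 log2 units (edgeR F-test adjusted p = 0.99998 or more for every member in this region).

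Star, the cholesterol carrier, had the smallest stage p of the members in the hippocampus (unadjusted p = 0.151). It was at 4.82, 5.52 and 4.72 CPM in proestrus, 5.04, 5.24 and 4.72 CPM in estrus, 4.55, 3.41 and 5.23 CPM in metestrus, and in diestrus 6.79, 5.21 and 5.93 CPM. Diestrus libraries were the highest on average and overlapped those of the other stages. Diestrus minus metestrus was 0.48 log2 units (edgeR adjusted p = 0.99999), and this was the contrast with an unadjusted p under 0.05 in this region. Star was also highest on average in diestrus in the hypothalamus, at 8.42 CPM, and in the neocortex, at 5.11 CPM, but in the cerebellum the highest mean was that of metestrus, 9.68 CPM.

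Fdxr had the smallest stage p of the members in the neocortex (unadjusted p = 0.163, adjusted p = 0.931) and in the hypothalamus (0.186 and 0.99998). In the neocortex it was at 6.90, 7.75 and 7.09 CPM in proestrus, 9.21 and 8.87 CPM in estrus, 6.32, 7.76 and 8.05 CPM in metestrus, and in diestrus 7.34, 7.72 and 5.66 CPM. Both estrus libraries were above the other 9, and the share of all genes with such a separation of stages was not computed. Diestrus minus estrus was -0.38 log2 units (edgeR adjusted p = 0.378). In the hypothalamus Fdxr was at 12.3, 9.54 and 15.5 CPM in proestrus, 17.1, 17.7 and 7.12 CPM in estrus, 14.0, 12.7 and 7.94 CPM in metestrus, and in diestrus 10.7, 7.48 and 15.7 CPM. There diestrus minus estrus was -0.54 (edgeR adjusted p = 1). The lowest hypothalamic values of estrus and metestrus were those of the libraries Estrus 3 and Metestrus 3, and the stages overlapped. In the hippocampus and cerebellum the estrus mean of Fdxr was not the highest, with the highest means in proestrus (9.67 CPM) and metestrus (20.2 CPM).

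Among the enzymes after the first step, Srd5a1 had its lowest stage mean in proestrus in all 4 regions, at 6.86 CPM in the hypothalamus, 7.72 in the cerebellum, 8.70 in the hippocampus and 9.33 in the neocortex. The highest stage mean was 9.71 CPM in diestrus in the hypothalamus, 10.7 CPM in diestrus in the hippocampus, 10.02 CPM in estrus in the neocortex and 9.68 CPM in metestrus in the cerebellum. In the hypothalamus, neocortex and cerebellum, proestrus libraries overlapped those of every other stage. In the hippocampus they were at 9.39, 8.71 and 8.0 CPM, all below the estrus libraries at 10.79, 9.53 and 9.76 CPM, and they overlapped those of metestrus and diestrus. How many of all genes separate stages in this way, or have the same lowest stage in all 4 regions, was not counted. The stage differences did not pass the edgeR F-test, with unadjusted p-values of 0.498 for the hypothalamus, 0.197 for the hippocampus, 0.955 for the neocortex and 0.585 for the cerebellum. In the hypothalamus and cerebellum the lowest single values of Srd5a1 were in the proestrus libraries Proestrus 2 (2.05 CPM, 6 counts) and Proestrus 1 (5.86 CPM, 15 counts). Proestrus also held the lowest cerebellar stage mean of Star, Fdxr, Fdx1, Srd5a3 and Hsd17b4. That of Tspo and Cyp7b1 was in metestrus, and that of Akr1c14 in diestrus.

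Srd5a3 had the smallest stage p of the members in the cerebellum (unadjusted p = 0.439, adjusted p = 0.9999). There it was at 5.47, 11.1 and 7.35 CPM in proestrus, 10.6, 8.84 and 8.38 CPM in estrus, 10.2, 8.92 and 8.97 CPM in metestrus, and in diestrus 10.8, 12.9 and 8.57 CPM. The proestrus libraries spanned most of this range. The cerebellar library Proestrus 1 was the shallowest of its region, with 2.56 times 1000000 counts, and its Star, Fdx1, Srd5a1, Srd5a3 and Hsd17b4 were the lowest of the 12 cerebellar libraries.

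The stage means of Tspo were the most spread of the tested members in the hypothalamus and cerebellum, and in the hippocampus after Akr1c14. In the hippocampus it was at 3.99, 1.12 and 2.15 CPM in proestrus, 3.73, 3.49 and 3.83 CPM in estrus, 1.76, 2.91 and 3.58 CPM in metestrus, and in diestrus 5.27, 4.17 and 2.91 CPM. The proestrus library Proestrus 1 was above all metestrus libraries, and the stages overlapped. Diestrus minus proestrus was 0.75 log2 units by edgeR (unadjusted p = 0.0712) and 0.87 by voom (95% interval 0.03 to 1.72). The sums of choroid plexus markers in the same libraries were 1738, 154 and 1692 CPM in proestrus and 2859, 3332 and 1773 CPM in diestrus, and the part of these cells in Tspo was not tested. In the hypothalamus Tspo was highest on average in proestrus (3.75 CPM) and in the cerebellum in estrus (4.06 CPM), so the highest stage was not the same in these regions.

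Akr1c14 was too low to be bounded within 2-fold. In the hippocampus Akr1c14 was counted 3, 7 and 4 times in proestrus, 8, 17 and 11 times in estrus, 9, 1 and 7 times in metestrus and 3, 2 and 10 times in diestrus. In the cerebellum, where it was not tested, it was counted 6, 1 and 2 times in proestrus, 11, 12 and 16 times in estrus, 5, 5 and 7 times in metestrus and 2, 6 and 5 times in diestrus, on totals that were highest in estrus. As levels, the cerebellar estrus libraries were at 1.46, 1.74 and 2.0 CPM, and the proestrus library Proestrus 1 was above them at 2.34 CPM. In the hippocampus the farthest interval bound was -2.39 log2 units and in the neocortex 2.07. Among the members tested, these bounds were the farthest. Cyp19a1, with at most 2 counts in a library, was tested in no region and has no bound.

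Of the 56 other pathway genes, 28, 32, 31 and 29 passed the filter for stage in the hypothalamus, hippocampus, neocortex and cerebellum. The rest were not tested. Among those tested, the edgeR stage test called 0 in each region, as it called 0 of all genes. An unadjusted p under 0.05 was found for 0, 1, 1 and 0 of them. The smallest p was that of Cyp11a1 in the hippocampus (unadjusted p = 0.00338, adjusted p = 0.99998). There it was at 1.5, 1.87 and 1.33 CPM in proestrus, 1.11, 1.24 and 1.47 CPM in estrus, 1.14, 2.0 and 2.02 CPM in metestrus, and in diestrus 0.608, 0.261 and 0.624 CPM. All 3 diestrus libraries were below the other 9, with 6, 2 and 6 counts. Cyp11a1 was picked here for its smallest p, and the share of all genes with such a separation was not computed. In the neocortex the diestrus libraries, at 2.82, 2.57 and 3.84 CPM, were not the lowest.

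Genes whose pattern was most like that of a member were found by the Pearson correlation of log2 CPM over the 16 means of region and stage, which share libraries, and are given as a description. They were Resf1 (r = 0.99) and Sycp3 (0.97) for Star, Mtss1l (0.98) and Hpcal1 (0.98) for Fdxr, Yif1a (0.94) and Eml3 (0.94) for Fdx1, and Gm8399 (0.98) and Arhgap39 (0.98) for Cyp7b1. For Hsd17b4 they were Srfbp1 (0.93) and Cops3 (0.92), and for Srd5a3 Wdr90 (0.90) and Npas4 (0.89). The highest correlations were lower for the other 2 genes, with Robo4 (0.80) and Pex5 (0.79) for Srd5a1 and Lmx1a (0.80) and Lum (0.78) for Tspo.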

How the data were processed

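Raw counts per Ensembl gene, deposited by the authors without normalization, were used from 4 tables of 37315 genes, 1 for each region, with 47 count columns in all. Per the submitters' processing notes, the tools included Cufflinks 2.1.1, DESeq 1.12.1, TopHat2 2.0.8, Trimmomatic 0.32 and SAMtools, and the builds GRCm38 and mm10. Not given in the sources used here were the counting program, the annotation and the use of strand. GENCODE M21 gave records for 35533 genes. Members and gene lists were chosen with earlier results of these data known.

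Counts were fitted with edgeR 4.0.16 (R 4.3.3), TMM factors and filterByExpr (minimum count 10, minimum total 15), and Benjamini-Hochberg adjusted p-values, each over every gene in its test, were called under 0.05. Stage was tested within each region by an F-test on 3 coefficients, regions were compared with glmTreat against 2-fold with stage as a covariate, and the interaction had 9 coefficients. Intervals of 95% came from limma 3.58.1 voom. Simulated counts were used to try only the stage test of the hypothalamus and the test against 2-fold between neocortex and cerebellum. Changes were set in genes of higher counts, so low members, the intervals and the interaction were not covered. CPM is the count per 1000000 counts of the library, not scaled by TMM factors. Means are given with SD over libraries, and levels per kilobase used the union of GENCODE exons. Counting error alone is covered by Poisson intervals and floors, because reads that carry no molecular identifier are not independent molecules. Promoter windows were available for 6 of the 10 genes. Shared sequence was found by 50-base windows of GENCODE transcripts.

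Every member was named. Of 56 other pathway genes, the classical steps were named, and up to 5 further genes per pair of the hypothalamus, neocortex and cerebellum with the largest called difference. For likeness, the 2 genes with the highest correlation were named. Alternatives included RLE factors, age as a factor, DESeq2 1.42.0, voom with sample quality weights and no filter on counts. Others were a replicate block, other thresholds and the interaction without the hippocampus. For the stage tests, each library was left out in turn. For the region tests, all libraries of 1 stage and replicate number were left out together. Single libraries were not left out of the region tests or the interaction. The region test against no difference and fits without 2 hypothalamic libraries were added after the data were seen.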

Additional observations from a re-analysis of the deposited data

How the results depend on the processing

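The 2 calls of Cyp7b1 held in all 18 settings at the 2-fold threshold, of which the main fit was 1. The log2 differences were -1.49 to -1.36 between hypothalamus and hippocampus (largest adjusted p 0.00494) and 1.83 to 1.94 between hippocampus and cerebellum. The number of members called between regions depended on the threshold. Against a log2 difference of 0.5, members called were 1, 0, 0, 1, 3 and 4 of 8 in the order of pairs of the report, where 32.5%, 34.9%, 37.2%, 19.0%, 37.9% and 32.6% of all genes were called. Against no difference they were 4, 7, 5, 5, 7 and 8, and without the hypothalamic libraries Estrus 3 and Metestrus 3, when 9 members were tested, 4, 6, 5, 6, 6 and 8. The shares of all genes were not computed for the fit without these 2 libraries. Between neocortex and cerebellum, leaving out 1 stage and number in turn gave 0 to 1 member, where the 1 was Fdxr without Estrus 2 (adjusted p = 0.0467), and the cause was not tested. Stage intervals within 0.5 log2 units held for 0, 2, 3 and 1 members in the hypothalamus, hippocampus, neocortex and cerebellum, and interval counts were recomputed only at this width and without 2 hypothalamic libraries. The stage test called 0 members in all settings run, and the lowest adjusted p of a member under an alternative was 0.901, 0.667, 0.542 and 0.801 in these regions. Of the values for single members, 1516 kept their side of the adjusted p threshold of 0.05 and 42 fell under it where they had missed it. Apart from Fdxr between neocortex and cerebellum without Estrus 2, all 42 came from the tests against no difference and against a log2 difference of 0.5. Those tests ask for less than the 2-fold test. Direction was compared for the 2 calls of Cyp7b1 only. Few counts limit Tspo, Akr1c14 and Cyp19a1 most.

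With the replicate number as a block, members called by stage remained 0 in each region, and a block of stage and number gave 1, 0, 0, 0, 1 and 0 members in the 6 pairs of regions. The labels do not say that equal numbers share a mouse, and the libraries were not treated as paired, which does not exclude that some were. Correlations of the deviations of equal numbers between stages ran from -0.36 to 0.51, and those of equal stage and number between regions from -0.174 to 0.239, with 14 of 69 over 0.1. Between regions the median was 0.0421 for equal and -0.0184 for unequal numbers of a stage. Between stages it was -0.15 against 0.0989 in the hippocampus, 0.0148 against 0.00615 in the hypothalamus, 0.0209 against -0.019 in the neocortex and -0.00135 against 0.00181 in the cerebellum.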
